A study of Mus musculus with 2 samples.

Results

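Heat shock proteins are molecular chaperones: they bind unfolded or partly folded proteins, keep them from aggregating and help them reach their folded state. The HSP70 proteins work in an ATP-driven cycle, in which J proteins deliver clients and start ATP hydrolysis and exchange factors release ADP, and the HSP90 proteins act later on a narrower set of clients such as kinases and nuclear receptors. Some chaperone genes are expressed steadily in most cells, while others stay low until heat, proteotoxic stress or cell handling activates heat shock factor 1, which binds heat shock elements in their promoters. The genes examined here were Hspa1a, Hspa1b, Hsp90aa1, Hspb1, Hsph1 and Dnajb1, taken as inducible, and Hspa8, Hsp90ab1, Hspd1 and Dnaja1, taken as constitutive. They were measured in stem cells of the mouse small intestine, sorted as Lgr5-GFP-positive cells from 8-week-old Lgr5GFP-CreERT2 mice, in which cells that use the Lgr5 gene carry green fluorescent protein. Cells of circPan3-/- mice, which lack the circular RNA circPan3, were set against cells of circPan3+/+ mice, and animals of both genotypes carried the Lgr5GFP-CreERT2 allele. Total RNA was profiled on the Clariom D mouse array of Affymetrix, with 1 array per genotype. The sources used here do not say how many mice a sample came from. With 1 array on each side no difference has an error or a test, and each one compares 2 arrays rather than 2 genotypes.

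Of the 10 genes, 7 had a row of the array annotated to that gene alone, and all 7 passed the filter on low signal, a mean over both arrays no lower than the middle row of the table (2.53 on the log2 scale). For a gene with several such rows the brightest was taken. Hspa1b and Dnaja1 stood only in rows that name other genes as well, and Hsp90ab1 was not analysed here. The 7 genes were read against 14618 named genes past the same filter, of 19692 named genes in all and 72688 rows. All values are RMA signal on a log2 scale, and a difference is circPan3-/- minus circPan3+/+. Named genes had a median difference of 0.36, with 0.19 in the dimmest eighth by mean level and 0.53 in the brightest, so a difference near these values is no more than what most genes showed. The 95th percentile of the negative control rows was 5.56 for circPan3-/- and 5.06 for circPan3+/+ cells, and it is called the control limit below. Values repeated in another row of the same array made up 4.20% of the circPan3-/- rows and 69.1% of the circPan3+/+ rows. No row that names a heat shock member held such a value on either array. Some genes of the lists below did on the circPan3+/+ array, such as Bag1 with St13 at 6.07 and Tomm70a with Dnajc13 at 5.93. Those values lie above the control limit of that array. Dnajc21 and Hspb8 held repeated values under it. Lgr5, which encodes the receptor that defines these stem cells, had a signal of 7.02 in circPan3-/- cells and 10.91 in circPan3+/+ cells, so it was above the limit on both arrays but 14.8-fold apart. The epithelial gene Epcam had 9.65 in circPan3-/- cells and 8.51 in circPan3+/+ cells. Pan3, the host gene of the circle, had 5.64 in circPan3-/- cells and 4.84 in circPan3+/+ cells, the circPan3+/+ value being under its control limit and held by 143 rows of that array. Which exons the Pan3 row covers was not determined, and the deletion of the circle was not checked. In these bulk samples fewer cells of a type and less RNA per cell cannot be told apart.

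Promoter sequences are shown because heat shock factor 1 binding sites are what the inducible genes are known to share, and because the promoters of Hspa1a and Hspa1b show how alike these genes are. The sequences are from RefSeq (GRCm38.p6), in windows of 250 bases before and 50 bases after each annotated start. Of the 10 genes 7 had a window, all but Hspa8, Hsp90aa1 and Hsp90ab1. They are not the same 7 genes as those with a row of their own on the array. A heat shock element is built of inverted GAA and TTC units. The motifs searched were GAANNTTC and TTCNNGAA for 2 units, and GAANNTTCNNGAA and TTCNNGAANNTTC for 3 units. Each 2-unit motif reads the same on both strands, the 3-unit motifs are each other's reverse complement, and every 3-unit match also holds 2-unit matches. Of the 7 genes with a window, 6 held a 2-unit match, against 16.97% of all 27025 genes with a window, and 2 held a 3-unit match, against 0.662%. A gene counted if any of its windows matched. The 7 genes had 12 windows and the 27025 genes had 32851, so windows per gene were not matched. Hspa1a and Hspa1b, whose sequences are nearly equal there, were counted separately. In the lines below the capitals mark the matched units.
Hspa1a, chr17:34972242-34972271, minus strand: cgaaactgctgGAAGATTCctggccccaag
Hspa1b, chr17:34959324-34959353, minus strand: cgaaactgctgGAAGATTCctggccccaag
Hspb1, chr5:135887791-135887820, plus strand: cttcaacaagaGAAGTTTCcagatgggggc
Hspb1, chr5:135887811-135887840, plus strand: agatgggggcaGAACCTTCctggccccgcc
Hsph1, chr5:149636351-149636380, minus strand: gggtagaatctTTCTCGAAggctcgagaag
Dnaja1, chr4:40722333-40722362, plus strand: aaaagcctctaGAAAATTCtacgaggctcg
Hspd1, chr1:55088053-55088082, minus strand: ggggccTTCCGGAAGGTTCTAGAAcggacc
Hspe1, chr1:55088053-55088082, plus strand: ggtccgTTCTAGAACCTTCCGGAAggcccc

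The Hspd1 line holds 4 units in a row, at positions -144 to -127 from one annotated start. The other annotated start of Hspd1 lies further upstream, so the match is between the 2 starts. Of 32851 windows, 8 (0.0244%) held 4 units. The same 30 bases, read from the opposite strand, lie at -89 to -72 before the start of Hspe1, which encodes the co-chaperonin of Hspd1 and was added after its values were seen. From the Hspd1 start nearest the match both genes are transcribed away from each other, whereas the other Hspd1 start lies beyond that of Hspe1, so that a transcript from it would cross the region. The match in Hspa1a and that in Hspa1b both lie at -104 to -97. Hsph1 also held a 3-unit match, TTCTGGAAAGTTC, 16 to 28 bases after one of its annotated starts. Dnajb1 held no match in either of its windows, which says only that these letters are not there. A match describes the sequence and was not read as a bound site.

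Among the HSP70 genes, the difference was small for the inducible Hspa1a and larger for the constitutive Hspa8, though neither reached 2-fold. Hspa1a encodes the stress-inducible cytosolic HSP70. It had a signal of 8.83 in circPan3-/- cells and 8.36 in circPan3+/+ cells, differing by 0.46 or 1.38-fold. That lies 0.11 above the median of named genes. It became -0.06 once the trend of the difference with mean level was removed by loess. The row that names both Hspa1a and Hspa1b had 8.76 in circPan3-/- cells and 7.67 in circPan3+/+ cells, differing by 1.09 or 2.12-fold. These genes encode nearly the same protein and lie near each other on chromosome 17, and signal in either row cannot be assigned to one of them with certainty. Their promoters, shown next with the differing bases in capitals, are equal at 247 of the 250 bases before the start.
Hspa1a, chr17:34972157-34972406, minus strand: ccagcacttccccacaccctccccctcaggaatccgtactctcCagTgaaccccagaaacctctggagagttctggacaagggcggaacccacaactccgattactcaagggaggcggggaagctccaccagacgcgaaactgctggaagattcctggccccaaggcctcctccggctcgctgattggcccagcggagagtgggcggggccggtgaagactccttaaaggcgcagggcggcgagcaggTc
Hspa1b, chr17:34959239-34959488, minus strand: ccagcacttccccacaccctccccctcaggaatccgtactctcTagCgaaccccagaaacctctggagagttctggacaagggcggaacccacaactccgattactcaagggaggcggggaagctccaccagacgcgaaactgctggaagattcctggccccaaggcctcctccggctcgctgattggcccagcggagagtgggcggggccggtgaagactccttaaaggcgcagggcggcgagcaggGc

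Hspa8 encodes HSC70, the constitutive cytosolic HSP70 that also takes part in clathrin uncoating and in chaperone-mediated autophagy. Its brightest row had 12.05 in circPan3-/- cells and 11.10 in circPan3+/+ cells, differing by 0.95 or 1.93-fold. The 4 rows annotated to Hspa8 alone differed by 0.92 to 0.97. Their identifiers carry the numbers of chromosomes 1, 6 and 14, whereas RefSeq places Hspa8 on chromosome 9. Over 29030 rows of 1 symbol, that number equalled the RefSeq chromosome in 99.7%. The rows of Hspa8 alone may therefore read copies of its sequence elsewhere in the genome rather than Hspa8 itself, which was not tested, and 0.95 is the difference of those rows. The row with the number of chromosome 9 names Hspa8 together with 3 small nucleolar RNA genes, and had 9.52 in circPan3-/- cells and 8.67 in circPan3+/+ cells, differing by 0.86. Every row that names Hspa8 was therefore higher in circPan3-/- cells, by 0.75 in a row shared with Gm15459 to 0.97. These rows may read the same sequence and are not separate measurements. After loess the brightest row was at 0.42, the row of chromosome 9 at 0.33 and that shared with Gm15459 at 0.23. Among named genes in the brightest eighth the brightest row of Hspa8 stood at percentile 80.2.

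The largest difference among the 7 genes was that of Hspd1, which encodes HSP60, the chaperonin that folds proteins imported into the mitochondrial matrix. Hspd1 had a signal of 8.60 in circPan3-/- cells and 7.04 in circPan3+/+ cells, both far above the control limits. The difference was 1.57 or 2.96-fold, and 335 of the 14618 named genes had a larger one, which puts Hspd1 at percentile 97.7. Among the named genes in the brightest eighth it stood at percentile 95.2. It was 1.21 relative to the median of named genes and 1.04 after loess, past 2-fold either way. Hspe1, whose HSP10 protein caps the HSP60 ring, had 7.01 in circPan3-/- cells and 6.50 in circPan3+/+ cells, differing by 0.51. That lies 0.15 above the median of named genes, but under the median of the brightest eighth, 0.53, and was -0.03 after loess.

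The HSP90 and HSP110 genes and the J protein genes sat close together, above the median of named genes but under 2-fold. Hsp90aa1, the stress-inducible cytosolic HSP90, had 9.29 in circPan3-/- cells and 8.59 in circPan3+/+ cells, differing by 0.70 or 1.62-fold. Rows that name Hsp90aa1 beside Gm12346 or Gm5844 differed by 0.69 and 0.46. Hsph1 encodes HSP110, an exchange factor of HSP70 that acts in disaggregation. It had 7.39 in circPan3-/- cells and 6.59 in circPan3+/+ cells, differing by 0.81 or 1.75-fold. Dnajb1 encodes the J protein HSP40, the main inducible partner of HSP70. It had 7.21 in circPan3-/- cells and 6.39 in circPan3+/+ cells, differing by 0.82 or 1.77-fold. The row that names Dnaja1, a J protein with a farnesylated end, beside the microRNA gene Mir207 had 7.46 in circPan3-/- cells and 6.85 in circPan3+/+ cells, differing by 0.61. After loess on mean level Hsp90aa1, Hsph1 and Dnajb1 were 0.17, 0.27 and 0.29 above the trend.

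Hspb1 was the single gene of the 7 with a lower signal in circPan3-/- cells. It encodes HSP27, a small heat shock protein that holds unfolded proteins without ATP and also binds actin. Hspb1 had 4.78 in circPan3-/- cells, under the control limit, and 5.23 in circPan3+/+ cells, differing by -0.45 for which the limits allow no fold. Relative to the median of named genes it stood at -0.80, and at -0.91 after loess. It was at percentile 7.33 of the named genes.

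**Figure D1:**
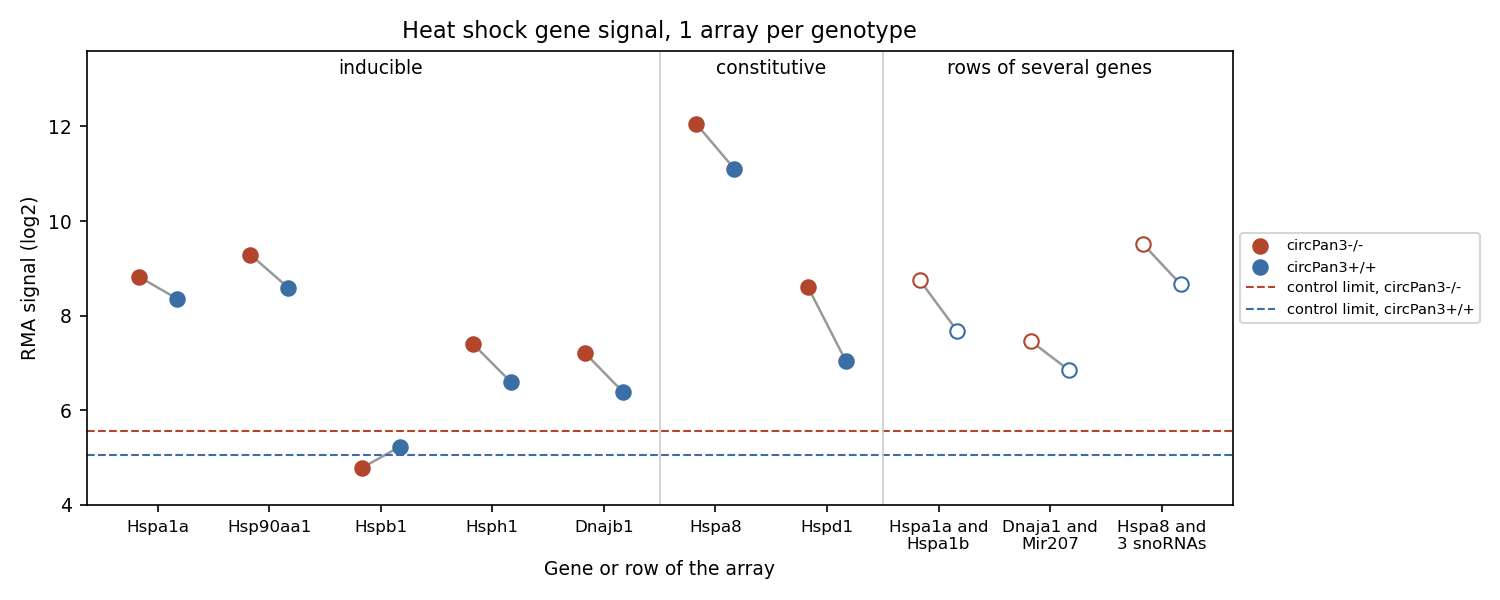
RMA signal (log2, vertical axis) of each heat shock gene on the circPan3-/- array (left point of each pair) and the circPan3+/+ array (right point); open points are rows that name several genes, and dashed lines are the control limits of each array. Hspd1 has the steepest line of the 7 genes, at 8.60 and 7.04, and Hspb1 alone runs the other way, at 4.78 and 5.23.

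Of the 7 genes 1 was at least 2-fold higher in circPan3-/- cells, beside 9.68% of all named genes past the filter, and 0 were at least 2-fold lower, beside 2.74%. Among named genes of the brightest eighth, where 6 of the 7 lie, 16.7% were at least 2-fold higher. The count at 2-fold therefore does not set the group apart from other genes. At 1.5-fold, 5 of the 7 were higher, beside 30.3% of all named genes and 45.5% in the brightest eighth, and 0 were lower, beside 5.55%. Relative to the median of named genes, 1 of 7 was higher, beside 3.84%, and 0 were lower, beside 4.96%. After loess, 1 of 7 was higher, beside 3.45%, and 0 were lower, beside 4.93%. Hspd1 was that gene each time. The median over the 7 was 0.81, against 0.36 over all named genes, and 6 of the 7 lay above that median. After loess the median was 0.27, with 5 of the 7 above the trend.

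Inducible and constitutive chaperones were compared by their medians. The 5 inducible genes had a median difference of 0.70, ranging from -0.45 for Hspb1 to 0.82 for Dnajb1, and 0 of them were 2-fold apart. The 2 constitutive genes, Hspa8 and Hspd1, had a median of 1.26. Both constitutive genes were above every inducible one, so the ranges did not overlap, and the inducible median lay 0.56 below the constitutive one (-0.56, inducible minus constitutive). This rests on few genes and on the row taken for Hspa8. The Hspa8 row with the number of chromosome 9, at 0.86, was also above Dnajb1. The row shared with Gm15459, at 0.75, was below Dnajb1 and Hsph1. When the rows of several genes stood for Hspa1b and Dnaja1, the medians were 0.75 over 6 inducible and 0.95 over 3 constitutive genes, a difference of -0.19, and the ranges overlapped, since the row of Dnaja1 was at 0.61 and that of Hspa1b at 1.09. With Hspd1, which heat also induces, counted as inducible, Hspa8 was the only constitutive gene left. The difference was again -0.19, between the same values of 0.75 and 0.95.

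**Figure D2:**
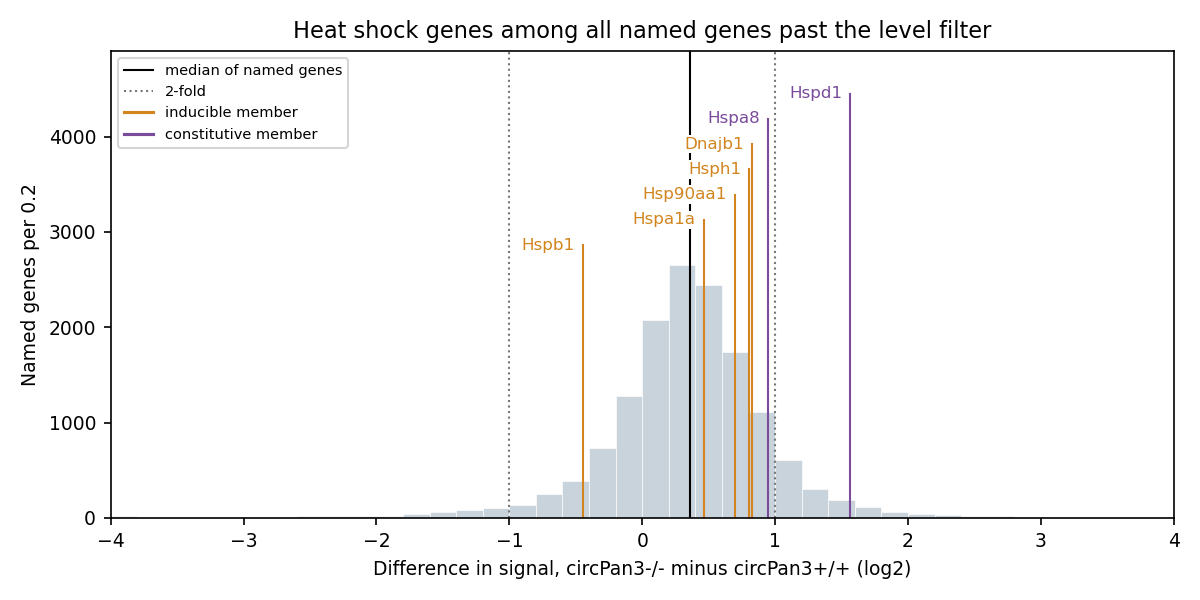
Number of named genes (vertical axis) by difference in signal, circPan3-/- minus circPan3+/+ (log2, horizontal axis; values past 4 in size are drawn in the outermost bars), with the 7 heat shock genes marked by vertical lines and the median of named genes, 0.36, in black. Of the 7 only Hspd1, at 1.57, is past the dotted 2-fold line, and Hspb1, at -0.45, is the only one below 0.

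The other genes of the chaperone system were described by lists. Every count below stands beside the same shares of named genes, 9.68% at least 2-fold higher and 2.74% lower as deposited, 3.84% and 4.96% after centring on their median, and 3.45% and 4.93% after loess. Of 10 other HSP70 and HSP110 genes past the filter, 3 lay at least 2-fold higher and 0 lower, with a median of 0.73. After centring, and after loess, 1 was higher, Hspa9, and for 6 of the 10 both values were below the control limits. Hspa9, which encodes mortalin, the HSP70 of the mitochondrial matrix, was furthest, with 8.24 in circPan3-/- cells and 6.56 in circPan3+/+ cells, differing by 1.68 or 3.20-fold. Hspa5, the HSP70 of the endoplasmic reticulum, had 9.14 in circPan3-/- cells and 7.83 in circPan3+/+ cells, differing by 1.30. At the other end Hspa13 stood at -0.20, between values under the control limits. The mitochondrial folding and protease list, which holds Hspa9 and Hspe1 but not Hspd1, had 14 genes past the filter, all of them above the median of named genes. Of these 14, 3 lay at least 2-fold higher and 0 lower, and the median was 0.67, or 0.21 after loess. After loess 11 of the 14 were above the trend, while Hspe1, Dnajc15 and Htra2 were below it. Of the 14, 6 lay under the limits on both arrays and 4 on one. The matrix protease gene Lonp1 was second in that list at 1.14, with its circPan3+/+ value under the limit, so that its fold is a bound of at least 1.68-fold. The lowest was the disaggregase gene Clpb at 0.39, between values under the limits. Relative to the median of named genes 1 of the 14, Hspa9, was 2-fold higher.

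Partner proteins of the chaperones, in the cytosol, mitochondria and endoplasmic reticulum, were described by 4 further lists with medians of 0.43 to 0.58. They share Grpel1, Grpel2, Dnaja3 and Dnajc15 with the mitochondrial list, and Hspa4 with the list of other HSP70 and HSP110 genes. Of 39 other J protein genes, 3 lay at least 2-fold higher and 0 lower, the median was 0.43, and 24 lay under the limits on both arrays. With bounds to the limits 1 of the 39 was higher. Dnajc21, which acts in ribosome assembly, stood at 1.31, at least 1.59-fold, and Dnaja4 at -0.44, between values under the limits. Of 12 exchange factors and BAG proteins, 2 were higher and 0 lower, with a median of 0.46. They were Hspa4 at 1.13, an HSP110-type protein, and Bag1 at 1.01, while the stress-inducible Bag3 had 0.02. Of 17 HSP90 co-chaperones, 2 were higher and 0 lower, with a median of 0.58. They were Fkbp4 at 1.34, an immunophilin of steroid receptor complexes, and Tomm70a at 1.05, a mitochondrial import receptor that docks HSP70 and HSP90. The cytosolic chaperonin TRiC and prefoldin act in the folding of actin and tubulin. Of 13 of their genes, 1 was higher and 0 lower, with a median of 0.50. That gene was Cct2 at 1.11, and Vbp1 was lowest at -0.29. After centring or loess none of these 4 lists had a gene at least 2-fold apart.

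The small heat shock proteins other than Hspb1 were too dim for a direction of the group to be read, with 8 of the 9 genes past the filter under the limits on both arrays and 1 on one. Of the 9, 0 lay at least 2-fold higher and 2 lower, with a median of 0.01, and 3 lay above the median of named genes, led by Hspb2 at 0.61. Hspb8 had 3.01 in circPan3-/- cells and 4.48 in circPan3+/+ cells, with -1.47 between 2 values under the limits. Cryab, the gene of alpha-B crystallin, had 4.10 in circPan3-/- cells and 5.22 in circPan3+/+ cells, differing by -1.12 for which the limits allow no fold.

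Genes upstream of the heat shock response and its other targets were described in the same way. Of 7 heat shock factor genes and regulators past the filter, 0 were 2-fold apart, with a median of 0.18. Hsf2 and Hsf4 had 0.19 and 0.14, both between values under the limits, and Hsf1 was not analysed here. Of 17 other known targets of heat shock factor 1, 2 were higher, Fkbp4 and Hspa4, and 2 lower, Hspb8 and Cryab. After centring, and after loess, 0 were higher and 4 lower, with Sqstm1, the gene of an autophagy receptor, and Serpinh1, that of a collagen chaperone, added to Hspb8 and Cryab. Sqstm1, above the limits on both arrays, and Serpinh1, under them on both, were named after their values were seen. With bounds to the limits, on the values as deposited, 2 of the 17 were higher and 0 lower. The median was 0.51, 0.15 above that of named genes, or -0.03 after loess, and 10 of the 17 lay above the median of named genes. All of the 17 but Serpinh1, Cacybp, Sqstm1 and Zfand2a also stand in the lists above, so this list is mostly not a separate set of genes.

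Heat shock genes and immediate early genes are both known to respond to tissue dissociation, so both were measured. Whether dissociation played a part in these values was not tested. With 1 array per genotype, handling of the cells and genotype cannot be told apart. Of 21 immediate early genes past the filter, 12 lay at least 2-fold higher and 0 lower in circPan3-/- cells, 10 after centring, with a median of 1.30. Fosb, an AP-1 subunit, had 8.34 in circPan3-/- cells and 5.79 in circPan3+/+ cells, differing by 2.55, and Jun had 9.23 in circPan3-/- cells and 6.82 in circPan3+/+ cells, differing by 2.41. Egr3 was lowest at 0.09. Fosb and Jun were each further apart than any of the 7 heat shock genes. Of 13 genes of folding in the endoplasmic reticulum, 3 were higher and 0 lower, with a median of 0.70, led by Hspa5 at 1.30 and the calnexin gene Canx at 1.16, while Sdf2l1 had 0.01. Relative to the median of named genes 0 of these 13 were 2-fold apart. Hspa5, Hyou1, Dnajb9, Dnajb11 and Dnajc3 also stand in the lists above. Of 8 targets of NRF2, the factor of the oxidative stress response, 0 were higher and 5 lower, with a median of -1.19, and 3 were lower with bounds to the limits. The haem oxygenase gene Hmox1 had 3.97 in circPan3-/- cells and 8.32 in circPan3+/+ cells, at least 6.79-fold lower. The cystine transporter gene Slc7a11 had 2.52 in circPan3-/- cells and 6.05 in circPan3+/+ cells, at least 1.41-fold lower, and the glutathione reductase gene Gsr was highest at 0.60.

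**Figure D3:**
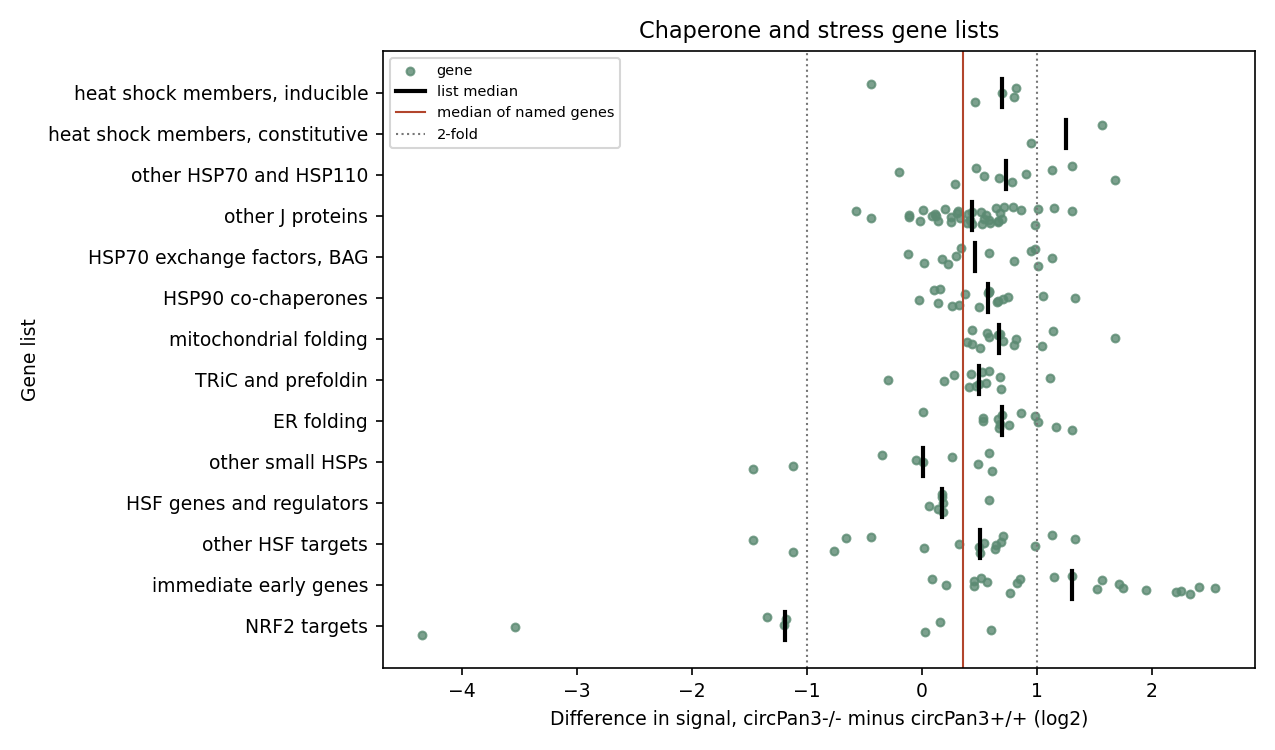
Difference in signal, circPan3-/- minus circPan3+/+ (log2, horizontal axis), of the genes in each chaperone or stress list (vertical axis); points are genes past the level filter, black bars list medians, the red line the median of named genes and dotted lines 2-fold. Immediate early genes reach 2.55, while the inducible heat shock genes with a row of their own end at 0.82. The row that names both Hspa1a and Hspa1b, at 1.09, is not drawn. The NRF2 targets reach -4.35 for Hmox1, whose fold is a bound.

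Markers of several cell types also differed between the arrays, to unlike degrees. Of 10 lymphoid markers 1 was at least 2-fold lower and 0 higher. Of 11 stromal and endothelial markers 4 were lower and 2 higher, or 3 and 1 with bounds. Of 8 enteroendocrine and tuft cell markers 6 were higher, 3 with bounds, and 0 lower. Of 8 epithelial markers 3 were higher and 0 lower. Of 12 myeloid markers 9 were at least 2-fold lower and 0 higher, with a median of -1.78, but for 10 of the 12 the circPan3-/- value was not above its control limit, and with bounds 3 were lower. S100a8 had 1.92 in circPan3-/- cells and 5.85 in circPan3+/+ cells, at least 1.23-fold lower. The summed linear signal of the 12 was 1720 in circPan3-/- cells and 2342 in circPan3+/+ cells. Lyz2 differed by -0.03 and held most of both sums. Without Lyz2, left out after the values were seen, the sum was 260.3 in circPan3-/- cells and 847 in circPan3+/+ cells. Of 9 goblet cell markers all 9 were higher, 7 with bounds, with sums of 5322 in circPan3-/- cells and 1162 in circPan3+/+ cells and Klk1 at 3.40. Of 8 Paneth cell markers all 8 were higher, 7 with bounds, with sums of 11071 in circPan3-/- cells and 3033 in circPan3+/+ cells and Ang4 at 3.37. Of 10 enterocyte markers 0 were higher and 5 lower, with sums of 2348 in circPan3-/- cells and 3895 in circPan3+/+ cells and Apoa4 at -2.50. Of 12 stem cell markers 6 were higher, 3 with bounds, and 2 lower, with a median of 1.15 and sums of 2152 in circPan3-/- cells and 5093 in circPan3+/+ cells. The lower ones were Lgr5 and Olfm4. The other 10, left when these 2 were taken out after the values were seen, are the higher ones by that choice. Over all named genes 78.3% had a higher signal in circPan3-/- cells. The sums of the 10 were 775 in circPan3-/- cells and 210.1 in circPan3+/+ cells, and 5 of the 10 lay under the limits on both arrays. The part of these differences in the chaperone values was not tested.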

How the data were processed

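Total RNA of sorted intestinal stem cells was measured on 2 arrays, 1 of circPan3-/- and 1 of circPan3+/+ cells. The authors summarised each row with RMA in Affymetrix Power Tools, per the submitters' processing notes, and the deposited values were taken as log2 signal from their range (-0.18 to 13.07), because the table states no unit. The sources used here give no version or build. Row names came from the annotation of the platform, brought up to date with RefSeq by Entrez identifier or synonym; 31258 rows had 1 symbol and 1492 had several genes, which named no gene on their own. Named genes leave out predicted models, long noncoding and small RNAs.

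Genes were described by size, at least 2-fold, with no test, and the number of arrays limits the precision. Where a value lay under its array's control limit (the 95th percentile of 5222 negative control rows), the fold was bounded by that limit. Genes named were the members, up to 2 genes at each end of each chaperone or stress list, 1 at each end of cell type lists, and Pan3, Lgr5 and Epcam; not all are printed. Hspe1 was chosen after its values were seen. The members and lists were chosen with earlier results of these data known. Loess had a span of 0.3. Functions were tested on simulated data. Python 3.11.15, pandas 2.3.3, numpy 2.4.6, statsmodels 0.14.6 and matplotlib 3.10.9 were used.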

Additional observations from a re-analysis of the deposited data

How the results depend on the processing

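No paired analysis was possible because there was 1 array per genotype. Of the 7 heat shock genes, 1 was at least 2-fold higher and 0 lower under centring, loess, quantile normalization, averaging a gene's rows, either other level filter and bounds to the control limit. It was 5 at a threshold of 1.5-fold, where 4431 named genes were higher and 811 lower, and 2 with the rows of several genes for Hspa1b and Dnaja1, an alternative added after seeing the data, as were those on Hspa8. The inducible median stayed below the constitutive one under every alternative that was run, from -0.87 without Hspa8 to -0.19. Without Hspa8, and with Hspd1 counted as inducible, the constitutive side was 1 gene. Counting Hspd1 as inducible was not combined with the rows of several genes. The sign is therefore not shown to hold under every choice. Hspa1a was the 1 gene that changed sign, at -0.06 after loess, and the cause was not tested. The background counts of named genes at least 2-fold higher and lower, 1415 and 400 as deposited, were 562 and 725 after centring, 504 and 721 after loess, 629 and 651 after quantile normalization, and 539 and 78 with bounds. At the upper quartile filter, which tests fewer genes, 254 were lower. Of 161 list medians under alternatives, 26 moved by at least 1.5-fold, past 2-fold or through 0, and 0 of those past 2-fold changed sign. Counting Dnaja1 as inducible was possible only with its row of several genes. Values under the control limit, such as those of the small heat shock genes, cannot be told from background signal.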

Other observations

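Genes chosen by sequence in place of function gave a further view of heat shock element promoters. Among named genes past the level filter, 59 held a 3-unit match in a promoter window, and their median difference was 0.43, against 0.36 over the 11107 such genes with any window. At least 2-fold higher were 5 of the 59 (8.47%), against 9.50% of the 11107, and 0 were at least 2-fold lower. Hspd1 and Hsph1 are among the 59, and Hspd1, at 1.57, is among the 5. The HSP90 co-chaperone gene Chordc1, a heat shock factor target in the lists above, had a difference of 0.33. Whether Chordc1 holds such a match is not stated here.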
